A study of Mus musculus with 8 samples.

Results

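The 41 genes described here serve protein synthesis at the step where amino acids are supplied and loaded onto tRNA. They comprise 20 cytosolic aminoacyl-tRNA synthetases, the mitochondrial synthetase Lars2, the stress transcription factor Atf4 with 4 of its target genes (Ddit3, Trib3, Chac1 and Asns), 7 enzymes of serine and one-carbon metabolism, 7 amino acid transporters and the glutaminase Gls2. The genes were taken by symbol from a fixed list of names, and each of the 41 matched 1 row among the 38215 genes of the deposited tables. Of these, 38 passed the expression filter and were tested; Trib3, Chac1 and Gls2 were too low.

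Each synthetase joins an amino acid to its own tRNA, so that the ribosome can use it. When a cell runs short of amino acids, uncharged tRNA activates the kinase Gcn2, translation slows and the mRNA of Atf4 is translated more efficiently. The Atf4 protein in turn raises transcription of synthetases, transporters, Asns and the enzymes of serine synthesis. In T cells, activation and MYC also raise many of these genes, since growth and division need amino acids and one-carbon units for proteins and nucleotides.

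The data are 8 bulk RNA libraries of sorted FoxP3+ Treg, 4 from bone marrow (BM-Treg) and 4 from spleen (SP-Treg), and the comparison is between these tissues. The mice were naive and 12 weeks old. The study names the mice as B6.FoxP3-GFP, a reporter line in which FoxP3+ cells carry a green fluorescent protein, whereas the labels give the genotype as C57Bl/6 for every library. No treatment was given in either group, and whether a library pooled several mice is not given in the sources used here. According to the labels, BM-Treg replicates 1 to 3 were batch 1 and female. Batch 3, labelled male, held BM-Treg replicate 4 together with the 4 SP-Treg replicates. The study's methods give female mice unless stated otherwise. Tissue can therefore be compared within a batch only through BM-Treg replicate 4, and batch and labelled sex cannot be told apart.

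Expected counts, which are estimated reads per gene, summed to between 12427136 and 21921252 per library. Levels are given as CPM, the counts scaled to a common library size after TMM normalization, and the tissues were compared with edgeR's quasi-likelihood test, adjusted by Benjamini-Hochberg over all 13397 genes tested with a threshold of 0.05. A negative log2 fold change means a lower level in BM-Treg, values of single libraries follow the order of replicates 1 to 4, and BM-Treg is named first wherever it is set against SP-Treg. The Treg list (Foxp3, Il2ra, Ctla4, Ikzf2, Cd4 and Cd3e) was high throughout, with summed levels of 7127 to 8598 CPM in BM-Treg and 7844 to 8636 CPM in SP-Treg. Summed levels of 8 CD8 T cell and NK cell markers lay at 15.0 to 16.9 CPM in BM-Treg and 17.1 to 56.1 CPM in SP-Treg (exact permutation test, two-sided p = 0.0286, the smallest this design allows, and 0.286 adjusted over 10 lists), and 2 of the 4 tested genes were called lower. B cell markers (8 of 8 listed) reached 141 CPM in SP-Treg replicate 2 and were at most 30.4 CPM elsewhere. Erythroid markers (7 of 10 matched) lay at 8.54 to 12.5 CPM in BM-Treg and 2.10 to 160 CPM in SP-Treg. Neutrophil markers (10 of 10) summed to 1.35 to 10.7 CPM in BM-Treg and 0.217 to 19.0 CPM in SP-Treg, with Ly6g at 0 in every library. The 12 immediate early genes summed to 1639 to 2886 CPM in BM-Treg and 1047 to 1706 CPM in SP-Treg (exact permutation test, p = 0.0571, 0.286 adjusted), with 3 called higher and 2 lower. The 12 cell cycle genes overlapped in their sum, at 1083 to 2160 CPM and 1526 to 1894 CPM, of which Mki67 made up 601 to 1411 CPM and 902 to 1145 CPM. Within the list 2 were called lower and 0 higher. The lower ones were Mcm2 (log2 fold change -0.62, adjusted p = 0.00283, edgeR) and Mcm5 (log2 fold change -0.94, adjusted p = 0.00463, edgeR). The plasma cell list (7 of 8 matched) overlapped in its sum, at 337 to 504 CPM and 397 to 505 CPM, of which Prdm1 made up 286 to 427 CPM and 283 to 433 CPM. Within it Ighg1, an immunoglobulin heavy chain gene, was called lower, at 0 to 0.233 CPM in BM-Treg and 7.09 to 58.8 CPM in SP-Treg (edgeR adjusted p = 0.00627), and Sdc1 was at 0 to 0.0932 CPM and 0.362 to 0.580 CPM, below the filter. Plasmacytoid dendritic cell and myeloid lists overlapped too and had 0 genes called. The adjusted exact permutation p of these last 3 lists was 0.667, 0.698 and 0.667. Apart from Ly6g, no marker was at 0 throughout. Malat1, a nuclear RNA, was at 15027 to 19599 CPM in BM-Treg and 11214 to 13554 CPM in SP-Treg, with no overlap. SP-Treg replicate 1 stood apart, with 19.2% of its counts in mitochondrial genes, against 29.6 to 32.9% in the other SP-Treg libraries and 24.5 to 28.7% in BM-Treg. The part of these markers and of RNA content in the results was not tested.

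In BM-Treg, 14 of the 41 genes differed from SP-Treg. Of these, 11 were downregulated: the synthetases Dars, Eprs, Iars, Kars, Rars and Tars, the enzymes Psat1, Mthfd1 and Mthfd2, and the transporters Slc7a5 and Slc38a1. The other 3, Atf4, Vars and Lars2, were upregulated. The fold changes were moderate, from -0.91 for Mthfd1 to 0.82 for Lars2 on the log2 scale. Across all genes tested, 8.75% passed in either direction, 5.02% as lower and 3.72% as higher. Among the 38 tested genes of the list, 36.8% passed, 28.9% as lower and 7.89% as higher. The list was chosen with earlier results of these data known, so that these shares describe it and are no test. The 4 BM-Treg libraries all lay below the 4 SP-Treg libraries in 12 of the tested genes, against 7.67% of all genes, and all above in 3 of them, against 8.26% of all genes. In a bulk library a lower level cannot distinguish fewer cells that express a gene from less of its RNA per cell.

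**Figure D1:**
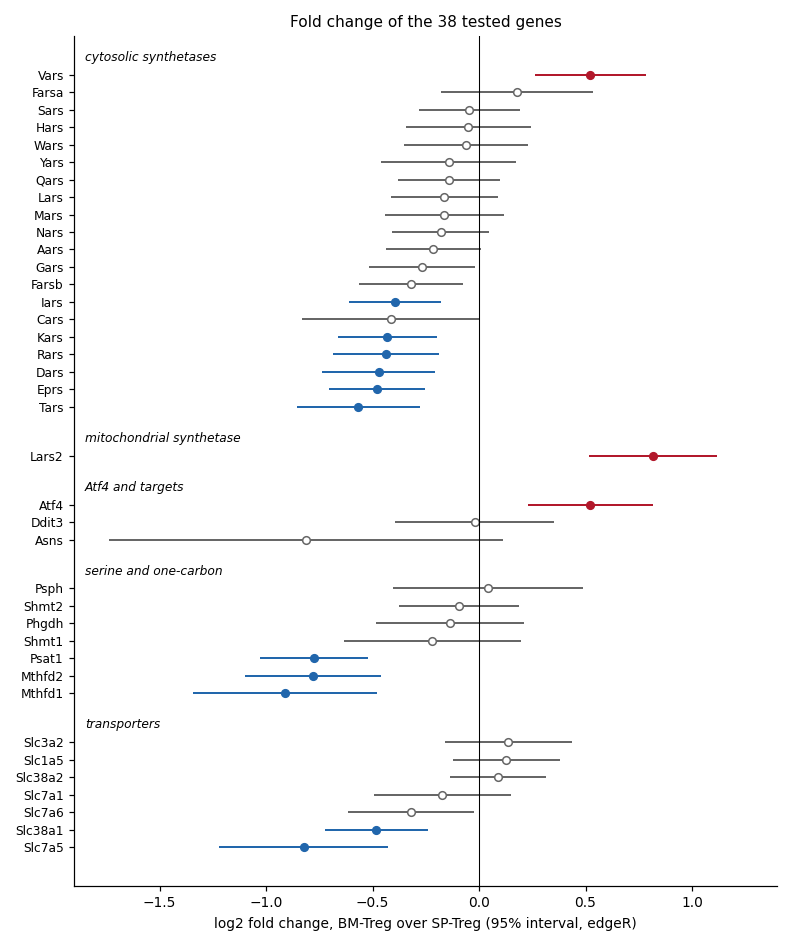
Log2 fold change of BM-Treg over SP-Treg (x axis) for the 38 tested genes, grouped by role, with points for the edgeR estimate and lines for its 95% interval. Blue and red points mark genes that passed the adjusted threshold as lower and as higher, and open grey points the 24 that did not. The 11 blue points lie between -0.91 and -0.39.

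All 14 calls kept their sign when only batch 3 was used (BM-Treg replicate 4 against the 4 SP-Treg libraries), but none passed there, and with batch as a term in the model only Eprs passed (log2 fold change -0.68, adjusted p = 0.0493). The count of 11 lower genes fell to 6 without BM-Treg replicate 1, to 7 without BM-Treg replicate 2 and to 8 without SP-Treg replicate 1 (2 higher), and on the FPKM scale to 2, Psat1 and Mthfd2.

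Among the 20 cytosolic synthetases, 18 had a negative and 2 a positive log2 fold change, with a median of -0.20 beside -0.01 over all genes tested. Of these 20, 6 were called lower and 1 higher. The count of 6 was 1 without BM-Treg replicate 1, 2 without BM-Treg replicate 2, 3 without SP-Treg replicate 1 and 0 on the FPKM scale. Eprs, which charges tRNA with glutamate and with proline, was called in 16 of 19 alternative analyses, more often than the other 5 lower synthetases. It stood at 74.1, 83.8, 79.5 and 65.8 CPM in BM-Treg replicates 1 to 4 and at 98.1, 99.2, 109 and 111 CPM in SP-Treg replicates 1 to 4. The lowest SP-Treg library lay above the highest BM-Treg library (log2 fold change -0.48, SE 0.10, adjusted p = 0.0106, edgeR).

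Tars, the threonine enzyme, had the largest decrease of the group. Its levels were 23.2, 26.1, 25.3 and 26.2 CPM in BM-Treg and 43.5, 29.9, 40.9 and 32.9 CPM in SP-Treg (log2 fold change -0.57, SE 0.13, adjusted p = 0.0159, edgeR). The SP-Treg libraries were spread wider than the BM-Treg libraries, with replicates 1 and 3 highest. Dars, the aspartate enzyme, was measured at 36.4, 40.2, 46.2 and 33.6 CPM in BM-Treg and 58.5, 46.5, 51.7 and 57.5 CPM in SP-Treg (log2 fold change -0.47, SE 0.12, adjusted p = 0.0263, edgeR). Here the tissues nearly touched, as BM-Treg replicate 3 lay just under SP-Treg replicate 2.

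The lysine enzyme Kars gave 37.2, 43.4, 46.2 and 37.8 CPM in BM-Treg and 53.9, 53.8, 55.1 and 56.2 CPM in SP-Treg (log2 fold change -0.43, SE 0.11, adjusted p = 0.0210, edgeR), with the SP-Treg libraries close together. Rars, for arginine, gave 39.5, 36.1, 35.1 and 37.7 CPM in BM-Treg and 45.9, 44.3, 55.1 and 52.9 CPM in SP-Treg (log2 fold change -0.44, SE 0.12, adjusted p = 0.0286, edgeR). Iars, for isoleucine, gave 55.1, 57.4, 56 and 60.1 CPM in BM-Treg and 77.4, 70.4, 79.6 and 69 CPM in SP-Treg (log2 fold change -0.39, SE 0.10, adjusted p = 0.0225, edgeR). In these 3 genes no library of a tissue reached the range of the other.

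Eprs, Dars, Kars, Rars and Iars belong to the multi-synthetase complex, a cytosolic assembly in which Lars, Mars and Qars are the other synthetases. This grouping was made after the values were seen and was given no test. All 8 synthetases of the complex had negative fold changes, 5 of them called, with a median of -0.41. Among the 12 synthetases outside it, 10 were negative and Tars alone was called lower, with a median of -0.16. Within single libraries the median of the 8 subunits, relative to the SP-Treg mean of each gene, lay between -0.38 and -0.23 in BM-Treg and between -0.07 and 0.07 in SP-Treg. For the 12 others it lay between -0.23 and -0.05 in BM-Treg and between -0.07 and 0.09 in SP-Treg, where the tissues overlapped.

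**Figure D2:**
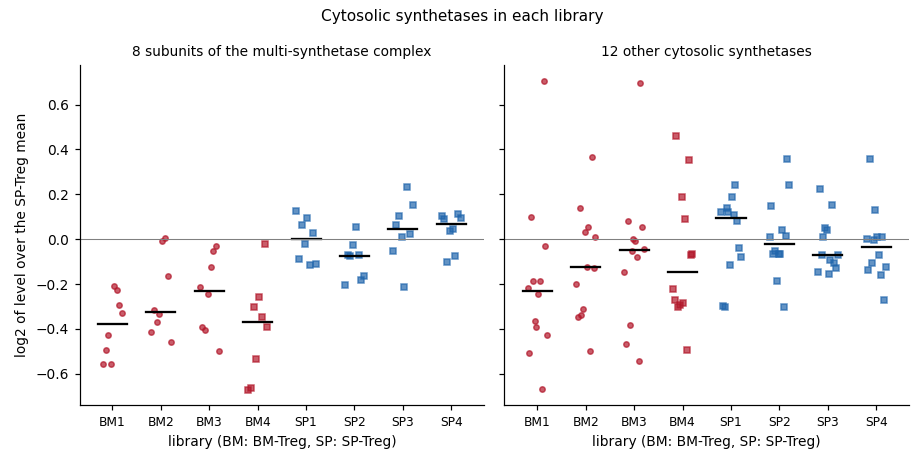
Log2 of each cytosolic synthetase's level over its SP-Treg mean (y axis) in each library (x axis), for the 8 synthetases of the multi-synthetase complex (left) and the 12 others (right). Points are genes (circles batch 1, squares batch 3), red for BM-Treg and blue for SP-Treg, and bars are library medians, which on the left are all below -0.2 in BM-Treg and above -0.1 in SP-Treg.

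Vars, the valine enzyme, was the only cytosolic synthetase called higher, and it is not part of that complex. It was at 56.5, 44.6, 56.1 and 44.2 CPM in BM-Treg and 36.6, 34.9, 32.2 and 34.8 CPM in SP-Treg (log2 fold change 0.52, SE 0.12, adjusted p = 0.0140, edgeR). BM-Treg replicates 1 and 3 were the highest, and all 4 lay above SP-Treg. These levels are of the whole gene and include retained-intron transcripts, whose shares are given below. Farsb, a subunit of the phenylalanine enzyme, was lower in every BM-Treg library without passing the test. Its levels were 31.3, 28.1, 27.3 and 28.9 CPM in BM-Treg and 39.2, 34.3, 35.8 and 33.1 CPM in SP-Treg (log2 fold change -0.32, SE 0.11, adjusted p = 0.0956, edgeR), while its partner subunit Farsa was at 19.5 ± 2.57 CPM and 16.9 ± 3.36 CPM (mean ± SD, n = 4 each). In the 13 synthetases that did not pass, log2 fold changes ranged from -0.41 for Cars to 0.18 for Farsa, with adjusted p from 0.0956 to 0.867 (edgeR). The 95% intervals of Hars, Sars and Wars, whose estimates were closest to 0, reached from -0.35 to 0.24.

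**Figure D3:**
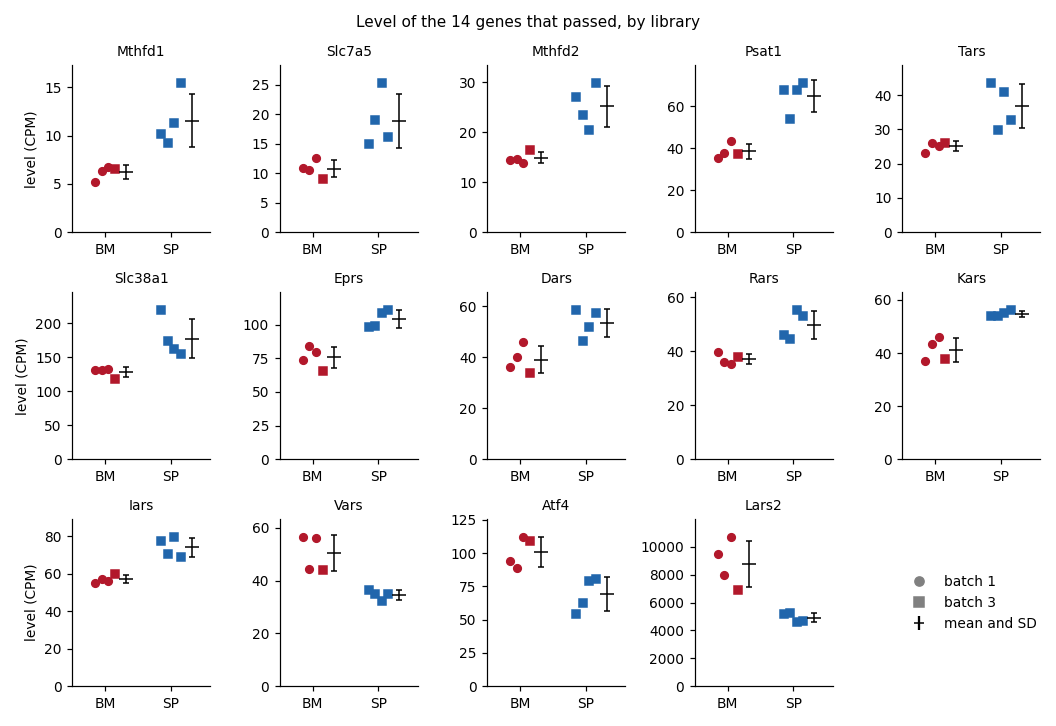
Level in CPM (y axis, from 0) of the 14 genes that passed, in the 4 BM-Treg (red) and 4 SP-Treg (blue) libraries. Circles are batch 1 and squares batch 3, and the black bar gives the mean and SD. In each panel the libraries of the tissues lie apart, and in 11 panels the SP-Treg libraries are the higher ones.

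To compare genes with one another, levels per length (FPKM) were used. Among the cytosolic synthetases of SP-Treg, Qars, for glutamine, was highest at 58.5 ± 7.78 FPKM and Cars, for cysteine, lowest at 5.03 ± 0.797 FPKM (mean ± SD, n = 4). Between these, 17 of the 19 neighbouring pairs in the order overlapped in their libraries. The exceptions were Qars above Nars and Lars above Cars. Most synthetases were thus present within a narrow band, from 9.31 ± 1.3 FPKM for Lars to 32.7 ± 5.44 FPKM for Nars. Vars stood at 32.9 ± 6.49 FPKM in BM-Treg and 20.03 ± 3.56 FPKM in SP-Treg.

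Lars2, the leucine enzyme of mitochondria (chr9:123366940-123462664 in the deposited tables, GRCm38), lay far outside that band. Its levels were 9515, 8008, 10710 and 6914 CPM in BM-Treg and 5196, 5248, 4611 and 4653 CPM in SP-Treg (log2 fold change 0.82, SE 0.14, adjusted p = 0.00251, edgeR). All BM-Treg libraries were above all SP-Treg libraries, and BM-Treg replicate 4, the library in the batch of SP-Treg, was the lowest of the BM-Treg libraries (batch 3 alone: log2 fold change 0.49). It ranked 5 among all genes by share of counts and took 0.431% to 1.09% of a library. Per length it reached 2358 ± 491 FPKM in BM-Treg and 1276 ± 144 FPKM in SP-Treg, 21.8 times Qars in SP-Treg. Of the 3864 runs of 31 bases in its transcript Lars2-201, 1.09% also occur in annotated transcripts of other genes, and none occurs in the mitochondrial ribosomal RNAs mt-Rnr1 and mt-Rnr2. The search took exact matches in annotated transcripts only and did not cover other sequences. Whether all reads of Lars2 are message of the enzyme was not tested, and its level is uncertain for that reason. Among 16 other mitochondrial synthetases, Mars2, for methionine, was higher at 7.2, 8.62, 8.54 and 5.87 CPM against 5.42, 3.79, 2.56 and 3.91 CPM (log2 fold change 0.93, SE 0.25, adjusted p = 0.0313, edgeR), and the other 15 did not pass.

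**Figure D4:**
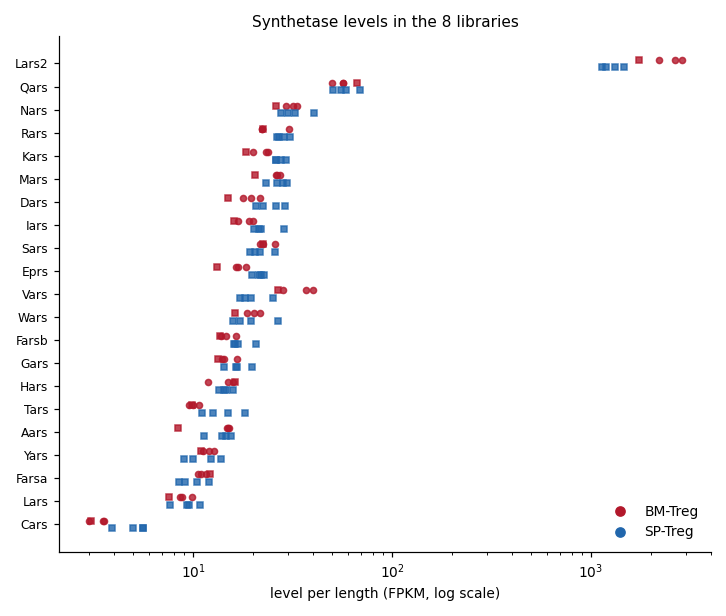
Level per length (FPKM, log scale, x axis) of the 20 cytosolic synthetases and Lars2 in every library, ordered by the SP-Treg mean; red is BM-Treg, blue SP-Treg, circles batch 1 and squares batch 3. Lars2 lies between 1134 and 2854 FPKM, and no cytosolic synthetase exceeds 69.1 FPKM.

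Atf4, the transcription factor of the amino acid response, was upregulated as mRNA. It stood at 93.7, 88.5, 112 and 109 CPM in BM-Treg and 54.4, 62.6, 79.2 and 80.5 CPM in SP-Treg (log2 fold change 0.52, SE 0.14, adjusted p = 0.0261, edgeR). The tissues were separated, with the lowest BM-Treg library at 88.5 CPM and the highest SP-Treg library at 80.5 CPM, and the call was lost without BM-Treg replicate 3, BM-Treg replicate 4, SP-Treg replicate 1 or SP-Treg replicate 2 (adjusted p up to 0.0771). Since Atf4 is controlled mainly in translation, its mRNA level does not measure the protein.

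Of the 4 genes listed here as Atf4 targets, Asns and Ddit3 were tested and neither passed. Cytosolic synthetases, transporters and enzymes of serine and one-carbon metabolism, some of which Atf4 also raises, were counted in their own groups. Those groups held all 11 lower genes and, among the higher ones, Vars. Lars2, the mitochondrial synthetase, was listed apart from them. Asns, which makes asparagine, was low, at 0.866, 0.978, 2.52 and 0.671 CPM in BM-Treg and 2.53, 2.13, 1.82 and 2.39 CPM in SP-Treg (log2 fold change -0.81, SE 0.43, adjusted p = 0.276, edgeR). BM-Treg replicate 3 alone reached the SP-Treg range. Ddit3, the stress factor also called CHOP, was at 13.9 ± 1.43 CPM and 13.9 ± 2.79 CPM (mean ± SD, n = 4 each; log2 fold change -0.02, SE 0.17, adjusted p = 0.956, edgeR). Its gene overlaps the end of Mars by 68 bases on the opposite strand (chr10:127296221-127296288), where reads cannot be assigned without strand. Trib3, an inhibitor of Akt and of Atf4 itself, was at 0.433, 0.699, 0.405 and 0.503 CPM in BM-Treg and 0.362, 0.0790, 0.248 and 0.0725 CPM in SP-Treg. Chac1, which breaks down glutathione, lay at 0 to 0.252 CPM and 0.0723 to 0.237 CPM. The Trib3 libraries of the tissues did not overlap, on 6 to 15 and 1 to 5 expected counts. Trib3 and Chac1 were below the filter and were not tested.

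Of 20 further Atf4 and unfolded protein response targets, 9 were tested and 2 passed. Herpud1, a part of protein degradation at the endoplasmic reticulum, was higher at 29.2, 30.3, 32.7 and 31 CPM against 20.2, 20.6, 15.5 and 21 CPM (log2 fold change 0.65, SE 0.13, adjusted p = 0.00612, edgeR). Cebpb, a dimer partner of Atf4, was higher at 4.0, 3.91, 5.93 and 4.45 CPM against 2.24, 1.5, 1.65 and 3.19 CPM (log2 fold change 1.06, SE 0.31, adjusted p = 0.0444, edgeR). Of 14 genes of the stress kinases and their translation factor, only Eif2s1, the subunit of eIF2 that these kinases phosphorylate, passed, lower at 83.2, 84.5, 92.3 and 78 CPM against 102, 109, 131 and 113 CPM (log2 fold change -0.45, SE 0.10, adjusted p = 0.0149, edgeR).

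Promoter windows of RefSeq (GRCm38.p6), from 250 bases before to 50 bases after the start of transcription, were matched by symbol for 29 of the 41 genes. They were searched on both strands for TGATGNAA, the element bound by Atf4 with a C/EBP partner, and for CACGTG, the element of MYC and related factors. The first was in 8 of the 29 genes (27.6%) and in 4.51% of all 27025 genes with a window. The second was in 4 of the 29 (13.8%) and in 8.09% of all genes, and TGACGTCA, the cyclic AMP element, was in 0 of the 29 and in 2.03% of all genes. Of the genes with the first element, Asns, Trib3 and Chac1 were listed as Atf4 targets. Its share is therefore not independent of how the list was made. The 8-letter matches are given because they lie in synthetases and Atf4 targets of the list. Each line gives, for the match nearest the start of the gene, 30 bases in the direction of transcription, with the matching letters in capitals.
Iars, chr13:49682126-49682155 (+): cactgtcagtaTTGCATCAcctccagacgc
Tars, chr15:11399655-11399684 (-): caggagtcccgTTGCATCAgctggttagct
Gars, chr6:55037960-55037989 (+): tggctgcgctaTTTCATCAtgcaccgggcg
Aars, chr8:111033840-111033869 (+): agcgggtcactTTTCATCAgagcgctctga
Yars, chr4:129189895-129189924 (+): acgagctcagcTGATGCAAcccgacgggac
Asns, chr6:7693214-7693243 (-): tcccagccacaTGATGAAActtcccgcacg
Trib3, chr2:152344028-152344057 (-): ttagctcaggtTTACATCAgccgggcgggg
Chac1, chr2:119351038-119351067 (+): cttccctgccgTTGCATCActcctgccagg

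Of these 8 genes, Iars and Tars were lower in BM-Treg, Gars, Aars, Yars and Asns did not pass and Trib3 and Chac1 were not tested. The match printed lay within 30 bases of the start in 7 of them and 193 bases before it in Chac1. Iars and Tars also held CACGTG, as did Aars and Farsb, and these windows are given for the pair that passed the test.
Iars, chr13:49682049-49682078 (+): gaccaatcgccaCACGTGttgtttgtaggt
Tars, chr15:11399622-11399651 (-): tccgcctgtggcCACGTGgcgcacgcgcag
Iars and Tars held both elements and had log2 fold changes of -0.39 and -0.57. Aars, which also held both, did not pass (log2 fold change -0.21, SE 0.10, adjusted p = 0.225, edgeR). The lower genes Dars, Eprs, Kars, Psat1, Mthfd1 and Mthfd2 had a window with neither element. Rars, Slc7a5 and Slc38a1, also lower, had no window. A link between the elements and the fold changes was not tested. A match describes letters and is no measured binding.

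Of the 7 enzymes of serine synthesis and one-carbon metabolism, 3 were downregulated and 4 did not pass. Psat1, the aminotransferase of serine synthesis, had the smallest p of the 38 tested genes. It stood at 35.2, 37.9, 43.7 and 37.5 CPM in BM-Treg and 67.7, 54, 68 and 71.1 CPM in SP-Treg (log2 fold change -0.78, SE 0.12, adjusted p = 0.00127, edgeR). No BM-Treg library came within 10 CPM of SP-Treg, and the fold change was -0.80 in batch 3 alone. The neighbouring steps did not pass. Phgdh, the first enzyme of the pathway, was at 22.4 ± 2.75 CPM and 24.3 ± 5.35 CPM, and Psph, the last, at 22.5 ± 7.89 CPM and 21.4 ± 2.55 CPM (mean ± SD, n = 4 each; adjusted p of 0.657 and 0.929, edgeR).

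Mthfd2, the mitochondrial folate enzyme that is raised in dividing cells, was at 14.5, 14.7, 13.8 and 16.4 CPM in BM-Treg and 27, 23.4, 20.4 and 29.8 CPM in SP-Treg (log2 fold change -0.78, SE 0.15, adjusted p = 0.00456, edgeR). Mthfd1, its cytosolic counterpart, was at 5.25, 6.38, 6.79 and 6.54 CPM in BM-Treg and 10.2, 9.24, 11.3 and 15.4 CPM in SP-Treg (log2 fold change -0.91, SE 0.20, adjusted p = 0.0116, edgeR). In both genes BM-Treg varied little and SP-Treg replicate 4 was highest. Shmt1 and Shmt2, which move a carbon unit from serine to folate, had fold changes of -0.22 and -0.09 (adjusted p of 0.540 and 0.714, edgeR). Of 12 further one-carbon and methionine cycle genes, 10 were tested and 2 passed, both lower. Ahcy, which removes the product of methylation, was at 16.4, 15.6, 14.4 and 24.7 CPM against 25.5, 27.8, 26 and 29.8 CPM (log2 fold change -0.64, SE 0.17, adjusted p = 0.0271, edgeR), and Mat2a, which makes the methyl donor, was at 173, 201, 212 and 201 CPM against 328, 316, 251 and 241 CPM (log2 fold change -0.55, SE 0.12, adjusted p = 0.00886, edgeR).

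Of the 7 transporters, 2 were downregulated. Slc7a5, the light chain of the carrier that brings large neutral amino acids such as leucine into activated T cells, was at 10.9, 10.5, 12.6 and 9.06 CPM in BM-Treg and 15, 19, 25.3 and 16.2 CPM in SP-Treg (log2 fold change -0.82, SE 0.18, adjusted p = 0.0124, edgeR). The tissues did not overlap, and SP-Treg replicate 3 was highest. Its heavy chain Slc3a2, which serves several carriers, did not pass, at 65.3 to 110.2 CPM in BM-Treg and 70.5 to 80.5 CPM in SP-Treg (log2 fold change 0.14, SE 0.14, adjusted p = 0.599, edgeR). The SP-Treg libraries of Slc3a2 lay inside the range of BM-Treg.

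Slc38a1, a sodium-coupled carrier of glutamine and other neutral amino acids, was at 131, 132, 133 and 118 CPM in BM-Treg and 219, 173, 162 and 155 CPM in SP-Treg (log2 fold change -0.48, SE 0.11, adjusted p = 0.0144, edgeR). The related Slc38a2 had a fold change of 0.09, the glutamine carrier Slc1a5 of 0.13, and the cationic amino acid carriers Slc7a1 and Slc7a6 of -0.17 and -0.32, with adjusted p from 0.168 to 0.655 (edgeR). Gls2, a glutaminase, was below the filter, at 0 to 0.180 CPM in BM-Treg and 0.145 to 1.11 CPM in SP-Treg. Of 15 other transporters of amino acids, 12 were tested. Slc36a1, a lysosomal carrier, was higher at 46, 54.5, 55.7 and 49.5 CPM against 37.5, 28.7, 27 and 26.5 CPM (log2 fold change 0.76, SE 0.13, adjusted p = 0.00223, edgeR), as was the taurine carrier Slc6a6 (log2 fold change 0.36, SE 0.10, adjusted p = 0.0443, edgeR), while Slc16a10, which carries aromatic amino acids, was lower (log2 fold change -0.67, SE 0.16, adjusted p = 0.0187, edgeR).

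The transcript tables divide a gene's expected counts among its transcripts, which is an uncertain estimate where transcripts overlap. Of the 38 tested genes, 21 had a single transcript with a mean share of at least 10% in a tissue and 17 had several. In Slc38a1 and in Wars the shares of the tissues did not overlap for 2 transcripts each. These were 4 of the 47 transcripts of the 17 genes with a mean share of at least 10%. How often this occurs over the transcripts of all genes was not computed. Shares of a gene add up to its whole, so that the 2 transcripts of a gene do not move independently. Slc38a1-202 took 45.4, 43.6, 21.5 and 38.7% of the gene in BM-Treg and 82.2, 70.5, 67.7 and 62.9% in SP-Treg. Slc38a1-201 took 35.7, 23.6, 41.5 and 28.6% in BM-Treg and 6.99, 14, 8.06 and 17.2% in SP-Treg. The first was thus the main transcript of SP-Treg, and BM-Treg was divided more evenly. In Wars, the tryptophan enzyme, which did not pass at the gene level (log2 fold change -0.06, SE 0.13, adjusted p = 0.830, edgeR), Wars-201 took 35.2, 16.2, 38.9 and 25.6% in BM-Treg and 5.26, 6.53, 14.5 and 9.28% in SP-Treg. Wars-205 took 8.9, 36.5, 20 and 32.8% in BM-Treg and 52.4, 38.1, 39.3 and 47.7% in SP-Treg. No test was made, since these transcripts were chosen among 47 for their separation. Psat1, Iars and Vars also had several transcripts with a mean share of at least 10%, and the shares of these overlapped between the tissues. In Vars, the retained-intron Vars-203 took 28.8, 24.9, 11.5 and 58.6% in BM-Treg and 41.2, 46.6, 45.4 and 41.8% in SP-Treg. The protein-coding Vars-201 took 30.4, 44.6, 58 and 12% in BM-Treg and 23.9, 28, 23 and 32.2% in SP-Treg. Whether the protein-coding transcripts of Vars were higher in BM-Treg was not tested. In Psat1 the mean shares differed, although the libraries overlapped. Psat1-204, annotated as a retained intron, took 32.7% in BM-Treg and 52.5% in SP-Treg. The protein-coding Psat1-205 took 45.4% in BM-Treg and 29.98% in SP-Treg. The fold change of Psat1 is therefore that of the whole gene and cannot be read as that of its protein-coding transcripts. Whether these were themselves lower in BM-Treg was not tested.

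**Figure D5:**
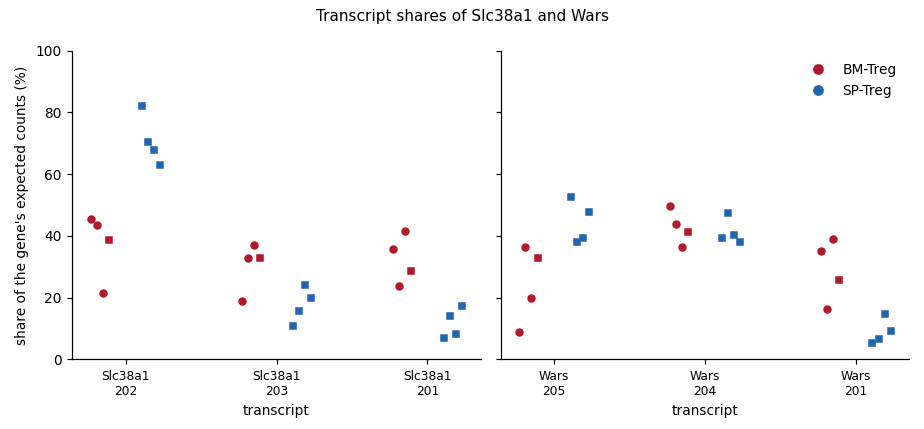
Share of the gene's expected counts in percent (y axis) for the 3 transcripts of Slc38a1 (left) and of Wars (right) with a mean share of at least 10% in a tissue, named by their GENCODE number. Each point is a library, red for BM-Treg and blue for SP-Treg, circles batch 1 and squares batch 3. Slc38a1-202 lies between 62.9% and 82.2% in SP-Treg and at most at 45.4% in BM-Treg.

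Further genes of the pathway were read from 8 lists by role, with 102 of 118 matched genes tested. Of these, 9 were lower and 8 higher, and their median log2 fold change was -0.05. Over all genes tested, 5.02% were lower and 3.72% higher, with a median of -0.01. Most calls of these pathway genes were lost with batch as a term. Among the partners of the synthetases and the elongation factors that carry charged tRNA to the ribosome, 9 of 9 had negative fold changes and 1 passed, Eef1g, at 221, 303, 340.3 and 288 CPM against 432, 437, 377 and 548 CPM (log2 fold change -0.66, SE 0.14, adjusted p = 0.00858, edgeR). The scaffolds of the multi-synthetase complex, Aimp1, Aimp2 and Eef1e1, did not pass, at -0.32, -0.01 and -0.69 (adjusted p of 0.369, 0.990 and 0.132, edgeR).

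Of 14 enzymes that interconvert amino acids, Bcat1, the cytosolic transaminase of branched-chain amino acids, had the largest change of all these genes. It was low in BM-Treg, at 0.379, 1.02, 0.989 and 0.252 CPM, and stood at 5.28, 3.79, 4.88 and 5.94 CPM in SP-Treg (log2 fold change -2.86, SE 0.41, adjusted p = 0.00105, edgeR). Got1, the cytosolic aspartate aminotransferase, was lower at 33.6, 36.5, 49.2 and 38.4 CPM against 77, 72, 61.4 and 54.6 CPM (log2 fold change -0.77, SE 0.14, adjusted p = 0.00332, edgeR), and Glul, which makes glutamine, was higher at 77.5, 72.8, 78.6 and 90.1 CPM against 50.03, 66.4, 56.5 and 48.1 CPM (log2 fold change 0.51, SE 0.12, adjusted p = 0.0178, edgeR). The other 11 enzymes of that list did not pass.

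Among 18 tested genes of amino acid sensing by mTORC1 and of MYC, 2 were lower and 2 higher. Myc, itself an activator of synthetase and transporter genes, was at 45.7, 40.5, 54.4 and 44.5 CPM in BM-Treg and 56.8, 68.4, 134 and 117 CPM in SP-Treg (log2 fold change -1.04, SE 0.26, adjusted p = 0.0413, edgeR). SP-Treg replicates 3 and 4 were well above the other SP-Treg libraries. Rragd, a GTPase that recruits mTORC1 to the lysosome, was lower at 16.3, 18.4, 18 and 15.6 CPM against 31.7, 27.3, 24.5 and 34.7 CPM (log2 fold change -0.81, SE 0.14, adjusted p = 0.00261, edgeR). Sesn1, a sestrin that holds back mTORC1, and Flcn, the GTPase-activating protein for RagC and RagD, were higher (log2 fold change 0.50, SE 0.11, adjusted p = 0.00881 and log2 fold change 0.53, SE 0.15, adjusted p = 0.0380, edgeR).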

How the data were processed

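Bulk RNAseq of sorted FoxP3+ Treg was analysed in 8 libraries, 4 per tissue. From each sample, 15 ng of RNA with a RIN above 7 underwent SPIA amplification, and single-end reads of 80 nt were obtained. Per the submitters' processing notes, cutadapt 1.9, STAR 2.5.2a and RSEM 1.2.30 were used with GRCm38. The authors deposited expected counts per gene and per transcript, without normalization between libraries, and FPKM values, scaled to length and depth. Column names gave the library of every column.

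Expected counts were rounded to whole numbers, kept by filterByExpr (13397 of 38215 genes), scaled by TMM and tested with edgeR 4.0.16 (robust quasi-likelihood, no covariate, Benjamini-Hochberg over all genes, R 4.3.3). CPM use TMM library sizes. The alternatives used DESeq2 1.42.0, limma 3.58.1 (voom, and trend on log2(FPKM + 1) and log2(FPKM + 0.1)), other filters, a batch term, batch 3 alone, a replicate block, other thresholds, no mitochondrial genes and Lars2, and each library left out. Reads carry no molecular identifiers. The p-values rest on the spread between libraries of a tissue, with each gene's estimate drawn toward those of the other genes. In BM-Treg that spread includes both batches. Batch and labelled sex nearly coincide with tissue, and the p-values do not separate tissue from them.

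The members, lists and tests were chosen with earlier results of these data known. Of 251 list entries, 245 matched a gene. A further promoter match is not reported here. Levels in every library are given for members that passed, for Atf4, Asns and Lars2 and for separated members, and for at most 3 passing genes in each direction of the other lists.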

Additional observations from a re-analysis of the deposited data

Results flagged for a closer look

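In 6 of the 76 groups of 4 libraries (38 genes in each tissue), a library stood far from the other 3 by Dixon's test, where chance gives about 1 group in 20. In BM-Treg, replicate 4 was high for Farsa at 23.3 CPM (others 17.9 to 18.6 CPM) and low for Slc38a1 at 117.7 CPM (others 131.0 to 132.7 CPM), and replicate 3 was high for Asns at 2.52 CPM (others 0.671 to 0.978 CPM). In SP-Treg, replicate 3 was high for Mars at 35.3 CPM (others 27.8 to 28.7 CPM), and replicate 2 was high for Yars at 23.0 CPM (others 17.8 to 18.5 CPM) and low for Slc7a1 at 40.5 CPM (others 43.5 to 44.1 CPM). Slc38a1 alone among these genes passed the comparison of the tissues, and its call held without BM-Treg replicate 4.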

How the results depend on the processing

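Under 19 alternatives (18 for Lars2 and for Asns), the 14 called members kept their direction, and none of the 24 others passed in any. The count of 11 lower members was also 11 with DESeq2's size factors, DESeq2, limma-voom, both other filters and without mitochondrial genes and Lars2. It was 2 with log2(FPKM + 1) and with log2(FPKM + 0.1), 1 with batch as a term, 0 in batch 3 alone, 2 at a threshold of 0.01 and 0 with a minimum absolute log2 fold change of 1. The count of 3 higher members became 0 with the batch term, 0 in batch 3 alone, 1 at 0.01 and 0 with the minimum fold change. The 6 lower cytosolic synthetases became 0 on both FPKM scales, 1 with the batch term and 0 in batch 3 alone, at 0.01 and with the minimum fold change. Their median log2 fold change moved from -0.20 to -0.10 and -0.11 on the FPKM scales, -0.29 with the batch term and -0.27 in batch 3 alone. The 17 called pathway genes outside the members became 9 and 8 on the FPKM scales, 2 with the batch term, 1 in batch 3 alone, 8 at 0.01 and 3 with the minimum fold change. The 1172 called genes became 727 and 701 on the FPKM scales, 258 with the batch term, 79 in batch 3 alone, 427 at 0.01 and 310 with the minimum fold change. DESeq2 called 1707. Fewer samples enter batch 3 alone, stricter thresholds call less by construction, and for the FPKM scales and the batch term the cause was not tested.

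Without each library in turn, 6 to 11 members were lower, 2 to 3 higher, 1 to 6 cytosolic synthetases lower, 10 to 16 pathway genes called and 690 to 1048 genes called. The synthetase count was 1 without BM-Treg replicate 1, 2 without BM-Treg replicate 2 and 3 without SP-Treg replicate 1; the pathway count was 10 without BM-Treg replicate 1 or 2 and 11 without BM-Treg replicate 3, and 690 genes were called without BM-Treg replicate 2. In every leave-one-out 8 members remained called, namely Eprs, Psat1, Mthfd1, Mthfd2, Slc7a5, Slc38a1, Vars and Lars2.

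The replicate numbers did not pair the samples (correlations of deviations from -0.18 to 0.06). With the replicate block, 8 members were lower, 3 cytosolic synthetases were lower (Eprs, Kars and Tars) and 948 genes were called.

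Among members that did not pass, 8 changed sign. On log2(FPKM + 1) and log2(FPKM + 0.1), Hars was at 0.0097 and 0.0098, Sars at 0.079 and 0.082, Yars at 0.066 and 0.073, Ddit3 at 0.050 and 0.054 and Phgdh at 0.025 and 0.028. With the batch term and in batch 3 alone, Hars was at 0.17 and 0.19 and Sars at 0.074 and 0.092. Ddit3 was at 0.0072 with at least 10 counts in every library and 0.0065 without mitochondrial genes and Lars2. Psph was at -0.047 with limma-voom and -0.00014 with the replicate block. Leaving out each library in turn gave ranges of -0.13 to 0.074 for Hars, -0.086 to 0.023 for Sars, -0.14 to 0.082 for Wars, -0.13 to 0.081 for Ddit3, -0.21 to 0.0082 for Phgdh, -0.21 to 0.22 for Psph and -0.16 to 0.014 for Shmt2. Depth limited Trib3, Chac1 and Gls2, which had at most 15, 3 and 14 expected counts in a library.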
